A study of Mus musculus with 6 samples.

Results

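The genes described here encode subunits of the phagocyte NADPH oxidase, the NOX2 complex. They are *Cybb*, *Cyba*, *Ncf1*, *Ncf4* and *Rac2*, 5 of the 54532 gene identifiers counted in each library. They were chosen by name for the complex and not by any measured value, but with earlier results of these data known. All 5 had enough reads to enter the test, which covered 12894 genes. RNA was measured in type 1 conventional dendritic cells (cDC1s), the dendritic cells specialised in presenting antigen to CD8 T cells. The cells came from bone marrow cultured for 8 days with 80 ng/mL FLT3L, a cytokine that drives dendritic cell development, and were sorted as CD24+ CD11c+ cells that lacked B220, CD115 and CD172a. The control genotype was *c-Jun/JunB* fl/fl, with floxed alleles of both genes and no Cre named in the labels, and the other was *c-Jun/JunB* Δ/Δ *Itgax*-Cre (here fl/fl and Δ/Δ), with 3 libraries each. In the Δ/Δ animals Cre is driven by the promoter of *Itgax* (CD11c), so that recombination is directed to CD11c+ cells, and c-Jun and JunB are subunits of the transcription factor AP-1. Per the methods, the mice were adults of both sexes on a mixed background of the 129 Sv and C57BL/6 strains. The methods do not tie an age, a sex or a number of pooled animals to any of these libraries. *Xist*, the RNA of the inactive X chromosome in female cells, had 1 read in Δ/Δ 2 and none in the other 5 libraries, and *Cybb* is X-linked.

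The NOX2 complex takes electrons from NADPH in the cytosol and passes them across a membrane to oxygen, which makes superoxide. *Cybb* encodes gp91phox, the catalytic subunit, and *Cyba* encodes p22phox, its partner in the membrane. At rest the remaining subunits lie in the cytosol. *Ncf1* encodes p47phox, the organizer that docks on p22phox, *Ncf4* encodes p40phox, which binds a phosphoinositide of the phagosome membrane, and *Rac2* encodes the small GTPase that joins the active complex. In dendritic cells the oxidase is known to act at the phagosome, where it slows acidification and the breakdown of captured antigen.

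Reads counted on genes ran from 23666519 to 26788296 in the fl/fl libraries and from 21693217 to 24429016 in the Δ/Δ libraries, and the 5 oxidase genes together held 0.0843 to 0.101% of them. Values are CPM, counts scaled to a common library total with the TMM factors of edgeR, with the SD over 3 libraries. Fold changes are Δ/Δ over fl/fl on the log2 scale, and adjusted p values are those of the quasi-likelihood test of edgeR, adjusted over all 12894 genes by the Benjamini-Hochberg method. A gene passed the test at an adjusted p under 0.05, as did 500 genes (3.88%), of which 262 (2.03%) were higher and 238 (1.85%) lower in Δ/Δ libraries. A gene was called where it also differed by at least 1 on the log2 scale, as 240 genes did (1.86%). Of the targeted genes, *Jun* read 70.9, 52.5 and 63.1 CPM in fl/fl and 48.2, 44.3 and 60.5 CPM in Δ/Δ libraries, which overlap (adjusted p = 0.345). *Junb* read 315, 274 and 413 CPM in fl/fl against 110, 171 and 212 CPM in Δ/Δ libraries, lower in each of the latter but with an adjusted p of 0.0729. The labels of the Cre libraries give the floxed alleles, and Δ/Δ is the name in the series title. It is used here as a name only, since a loss of *Jun* or *Junb* did not pass the test in the main setting. For cDC1s sorted from spleen and lymph nodes, the paper reports deletion of both genes by quantitative RT-PCR. The fall of *Junb* passed here with DESeq2's Wald test (adjusted p = 0.000119) and without a filter on low counts (0.0161). It also passed with the replicate block (0.0370) and without Δ/Δ 1 (0.0359), but not in the other alternatives. *Itgax*, whose promoter drives the Cre, fell by 1.22 on the log2 scale (adjusted p = 0.0147), from 131 ± 20.0 to 56.3 ± 12.2 CPM, and lost its call without fl/fl 1 (adjusted p = 0.0526), fl/fl 2 (0.0781) or fl/fl 3 (0.0505).

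Of the 5 oxidase genes, 1 passed the test. *Ncf4* was higher in Δ/Δ cDC1s by 26.1%, against a background of 2.03% of all genes that passed in that direction. *Rac2* was lower in every Δ/Δ library by 0.83 on the log2 scale, but its 3 Δ/Δ libraries were far apart and it missed the threshold. *Cyba* and *Ncf1* differed by less than the spread between libraries, and *Cybb* was high in a single Δ/Δ library. None of the 5 was called at the limit of 1 on the log2 scale, which 1.86% of all genes were. The genotypes did not overlap for 2 of the 5, *Ncf4* and *Rac2*, as for 26.0% of all genes tested. The median log2 fold change of the 5 was 0.05, beside 0.0018 over all genes tested.

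**Figure D1:**
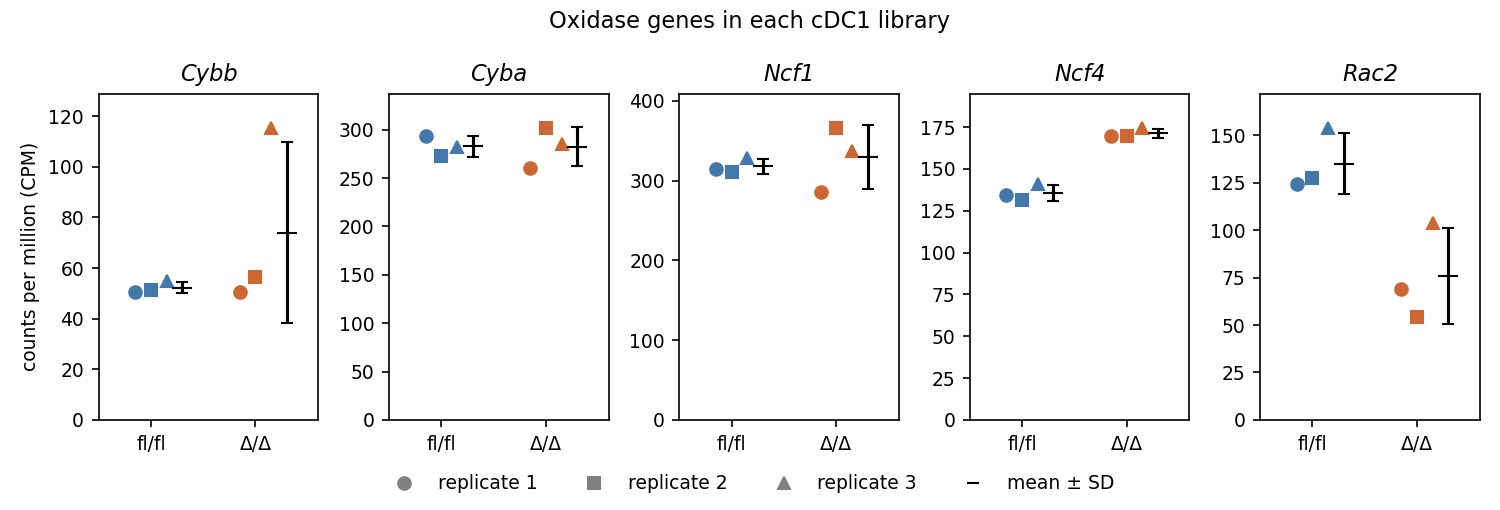
Each panel plots 1 oxidase gene in CPM from 0, with 1 point per library (circle, square and triangle for replicates 1, 2 and 3) and a bar for mean ± SD over 3 libraries of a genotype. *Ncf4* is higher and *Rac2* lower in every Δ/Δ library, and *Cybb* is near 50 to 57 CPM in 5 libraries and at 115 CPM in Δ/Δ 3.

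*Cybb*, the gene of the catalytic subunit (ENSMUSG00000015340.10, GRCm38 chromosome X, 9435252 to 9487771, minus strand), read 50.6, 51.5 and 54.7 CPM in fl/fl and 50.4, 56.5 and 115 CPM in Δ/Δ libraries. The first 2 Δ/Δ libraries lay just below and just above the fl/fl range, and Δ/Δ 3 was 2.28 times the lowest Δ/Δ library. The count behind the high value was 2613 reads, against 1211 to 1388 reads in the other 5 libraries. The log2 fold change was 0.50 (SE 0.29, 95% interval -0.19 to 1.19, adjusted p = 0.398). Without Δ/Δ 3 it was 0.03 (adjusted p = 0.905), so a single library set the size of the difference. The coefficient of variation of *Cybb* was 48.3% over the Δ/Δ libraries and 4.12% over the fl/fl libraries, while the medians over the 4330 genes of at least 50 CPM were 7.31 and 4.32%.

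Δ/Δ 3 also had the highest summed level of 11 monocyte and macrophage markers, 4319 CPM, against 3820 and 3469 CPM in the other Δ/Δ and 2453 to 2875 CPM in the fl/fl libraries. These sums were mostly *Lyz2*, the macrophage lysozyme, and *Ccr2*, a chemokine receptor of monocytes. *Lyz2* read 2378, 1895 and 2520 CPM in Δ/Δ 1, 2 and 3 and 1760 to 1939 CPM in fl/fl libraries. *Ccr2* read 1392, 1503 and 1724 CPM in Δ/Δ 1, 2 and 3 and 659 to 909 CPM in fl/fl libraries, so that it was also high in both Δ/Δ libraries with *Cybb* near the fl/fl level. *Adgre1*, which encodes F4/80, was highest in Δ/Δ 2, at 56.0 CPM. *Cd14*, a lipopolysaccharide co-receptor of monocytes, read 12.2 CPM in Δ/Δ 3 and 0.593 to 1.53 CPM in the other libraries. *Cx3cr1* was also highest in Δ/Δ 3, at 7.14 CPM against 2.01 to 2.97 CPM. Other markers of the list went the other way. *Ly6c2* and *Fcgr1* were lowest in Δ/Δ 3, at 1.59 and 0.529 CPM, and *C1qb* had no read there or in Δ/Δ 1. The macrophage genes *C1qa* and *Mertk* averaged under 0.3 CPM in both genotypes, and *Csf1r*, the receptor behind the CD115 gate, read 3.59 to 6.81 CPM in all libraries. The part of such cells in the *Cybb* value was not tested. In bulk samples, fewer cells of a type and less RNA per cell cannot be told apart.

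*Cyba*, which encodes the membrane partner (ENSMUSG00000006519.11, chromosome 8, 122424776 to 122432930, minus strand), read 294, 272 and 283 CPM in fl/fl and 261, 301 and 286 CPM in Δ/Δ libraries. The Δ/Δ values lay on both sides of the fl/fl values. The means were 283 ± 10.8 and 283 ± 20.5 CPM, and the log2 fold change was -0.0023 (SE 0.070, 95% interval -0.17 to 0.16, adjusted p = 0.990). The body of *Cyba* overlaps a predicted gene on the other strand, *Gm20388*, with which it shares no exon bases and which had no read in any library.

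*Ncf1*, the organizer gene (ENSMUSG00000015950.13, chromosome 5, 134220053 to 134229625, minus strand), read 315, 310 and 329 CPM in fl/fl and 286, 365 and 338 CPM in Δ/Δ libraries, which again lay on both sides. The log2 fold change was 0.05 (SE 0.092, 95% interval -0.17 to 0.27, adjusted p = 0.804). The interval thus reached differences of at most 0.27 on the log2 scale in either direction. *Ncf1* shares 408 of its 3663 exon bases with *Gtf2ird2* on the other strand, and which strand was counted is not stated, so reads of the shared stretch are uncertain. *Gtf2ird2* read 15.8 to 20.0 CPM in all libraries.

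*Ncf4*, the gene of p40phox (ENSMUSG00000071715.12, chromosome 15, 78244801 to 78262580, plus strand), read 135, 132 and 141 CPM in fl/fl and 170, 170 and 174 CPM in Δ/Δ libraries. Every Δ/Δ value lay above every fl/fl value, and the spread within a genotype was small, with means of 136 ± 4.82 and 171 ± 2.55 CPM. The log2 fold change was 0.33 (SE 0.053, 95% interval 0.21 to 0.46, adjusted p = 0.0208). The size held between 0.31 and 0.36 over 12 alternative settings, but the call was lost without fl/fl 1 (adjusted p = 0.131), without fl/fl 2 (0.130) or without fl/fl 3 (0.0627).

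*Rac2*, the gene of the hematopoietic Rac GTPase (ENSMUSG00000033220.7, chromosome 15, 78559167 to 78572783, minus strand), read 124, 127 and 153 CPM in fl/fl and 69.1, 54.4 and 104 CPM in Δ/Δ libraries. Every Δ/Δ value lay below every fl/fl value, with the smallest gap between Δ/Δ 3 and fl/fl 1. The means were 135 ± 16.1 and 75.7 ± 25.3 CPM and the log2 fold change was -0.83 (SE 0.22, 95% interval -1.36 to -0.31), with an adjusted p of 0.0934, above the threshold. Without Δ/Δ 3 the log2 fold change was -1.13 and passed (adjusted p = 0.0170). It also passed with DESeq2's Wald test (adjusted p = 0.00144) and without a filter on low counts (adjusted p = 0.0286), while the sign was negative in all 12 alternatives. The coefficient of variation was 33.4% over Δ/Δ and 11.9% over fl/fl libraries.

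The promoter windows of *Cybb* and *Ncf1* are shown because they held matches to motifs of AP-1, the factor whose subunits are targeted here, or of interferon regulatory factors (IRF), of which IRF8 defines cDC1s. RefSeq promoter sequences (GRCm38.p6, 250 bases before to 50 after the start) were given for 3 of the 5 genes, *Cybb*, *Cyba* and *Ncf1*. Exact matches were sought on both strands for TGANTCA (AP-1), GAGGAA (the core of the PU.1 site) and GAAANNGAA (IRF), and no match overlapped another. The 150 bases before the start follow, 5′ to 3′ on the gene's strand, from chrX:9469325-9469474 (minus strand) for *Cybb* and chr5:134229626-134229775 (minus strand) for *Ncf1*, with matches in capitals:
Cybb: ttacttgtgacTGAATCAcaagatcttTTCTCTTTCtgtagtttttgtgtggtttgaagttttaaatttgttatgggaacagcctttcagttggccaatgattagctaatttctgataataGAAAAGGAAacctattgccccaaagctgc
Ncf1: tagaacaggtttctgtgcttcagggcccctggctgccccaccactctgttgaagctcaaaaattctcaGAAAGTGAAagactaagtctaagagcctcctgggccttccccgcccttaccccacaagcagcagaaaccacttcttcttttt

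*Cybb* held 1 AP-1 match (first base 139 before the start) and 3 IRF matches, of which those starting 123 and 29 before the start are in the printed stretch, and 1 PU.1 core match after the start. *Ncf1* held 1 IRF match, which starts 82 before the start. *Cyba* held none of the 3 motifs. Of all 32817 RefSeq windows of this length, 7.81% held the AP-1 letters, 28.3% the PU.1 core and 8.55% the IRF letters. The RefSeq start of *Cybb* lies inside the longer gene body of the GENCODE annotation. These matches describe the letters of the windows and no binding was measured here.

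Levels of different genes were compared per length, as TPM, a transcript share computed from the counts and the merged exon length of each gene. In fl/fl cDC1s the order was *Cyba* at 916 ± 26.6, *Ncf1* at 292 ± 5.79, *Ncf4* at 226 ± 5.48, *Rac2* at 146 ± 16.2 and *Cybb* at 30.3 ± 1.10 TPM. No neighbours in this order overlapped in any fl/fl library. In Δ/Δ cDC1s the means were 915 ± 55.8 TPM for *Cyba*, 303 ± 33.7 TPM for *Ncf1*, 285 ± 5.77 TPM for *Ncf4*, 82.3 ± 27.8 TPM for *Rac2* and 42.9 ± 20.8 TPM for *Cybb*. Here the ranges of *Ncf1* (265 to 331 TPM) and *Ncf4* (279 to 291 TPM) overlapped, and so did those of *Rac2* (58.3 to 113 TPM) and *Cybb* (29.5 to 66.8 TPM). Within each Δ/Δ library *Rac2* was still above *Cybb*.

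**Figure D2:**
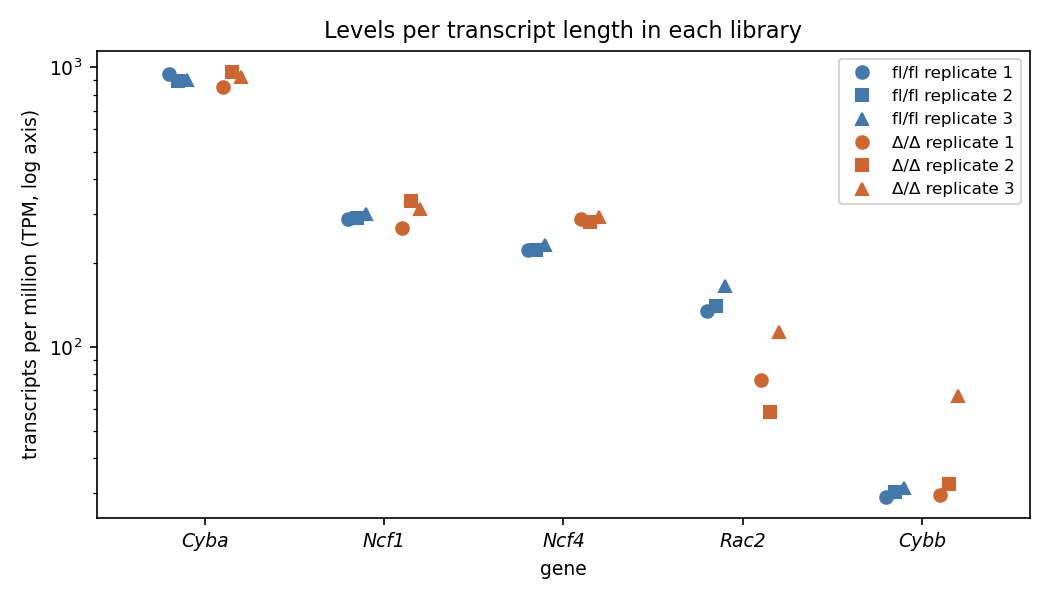
The plot gives TPM on a log axis for each oxidase gene, with 1 point per library (blue for fl/fl, orange for Δ/Δ, with a marker shape per replicate). *Cyba* lies between 854 and 964 TPM in all 6 libraries and *Cybb* between 29.1 and 66.8 TPM, while *Ncf1* and *Ncf4* are apart in fl/fl and overlap in Δ/Δ libraries.

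The membrane pair was uneven at the level of RNA. *Cyba* had 30.3 ± 1.91 times the TPM of *Cybb* in fl/fl and 24.2 ± 8.95 times in Δ/Δ cDC1s. The ratio of *Cybb* to *Cyba* was 0.0721 in Δ/Δ 3 and 0.0308 to 0.0346 in the other 5 libraries. The ratio of *Ncf1* to *Ncf4* was 1.29, 1.30 and 1.28 in fl/fl and 0.928, 1.19 and 1.07 in Δ/Δ libraries, so that it was lower in each Δ/Δ library. That of *Cyba* to *Ncf4* was 4.05 ± 0.178 and 3.21 ± 0.233, again without overlap. The ratio of *Rac2* to *Rac1*, the Rac GTPase found in most cells, was 0.418, 0.409 and 0.511 in fl/fl and 0.224, 0.193 and 0.394 in Δ/Δ libraries. *Rac1* was therefore the more abundant of these GTPase genes per length in every library. With the length of the longest transcript in place of merged exons, the *Rac2* to *Rac1* ratios averaged 0.421 and 0.255, and the order of the 5 levels by mean was the same in fl/fl cDC1s but *Ncf4* (294 TPM) was above *Ncf1* (287 TPM) in Δ/Δ cDC1s. These ratios were not tested.

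Partners of the complex were described with a list of 15 genes, all of which entered the test. They comprise a maturation factor of the membrane pair and a proton channel, the Rac and Rap GTPases with their regulators, and kinases that activate the cytosolic subunits. None passed the test upward and 1 passed downward, beside 2.03 and 1.85% of all genes, and the median log2 fold change of the list was 0.04. *Vav3*, a guanine nucleotide exchange factor of Rac GTPases, fell by 0.38 on the log2 scale (95% interval -0.53 to -0.23, adjusted p = 0.0230). It read 158, 163 and 179 CPM in fl/fl and 130, 129 and 126 CPM in Δ/Δ libraries, without overlap. Its call was lost without fl/fl 1 (adjusted p = 0.0843), fl/fl 2 (0.105), fl/fl 3 (0.0792) or Δ/Δ 3 (0.0581).

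*Rac1* read 431, 450 and 435 CPM in fl/fl and 448, 408 and 381 CPM in Δ/Δ libraries, which overlap (log2 fold change -0.09, 95% interval -0.25 to 0.07, adjusted p = 0.525). *Cybc1*, whose product is needed for the membrane pair to mature, read 118, 123 and 123 CPM against 124, 125 and 143 CPM. Each Δ/Δ value of *Cybc1* lay above the fl/fl values, by little in 2 of the 3, and the adjusted p was 0.474. *Hvcn1*, the proton channel that balances the charge moved by the oxidase, read 12.8, 9.16 and 12.7 CPM in fl/fl and 11.1, 36.3 and 23.0 CPM in Δ/Δ libraries. Its log2 fold change of 1.02 had a 95% interval of 0.10 to 1.95 and an adjusted p of 0.217, with Δ/Δ 1 inside the fl/fl range and Δ/Δ 2 the highest. *Arhgdia*, which holds Rac in the cytosol, was the most abundant partner that did not pass, at 977 ± 43.1 and 941 ± 50.3 CPM (adjusted p = 0.686).

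**Figure D3:**
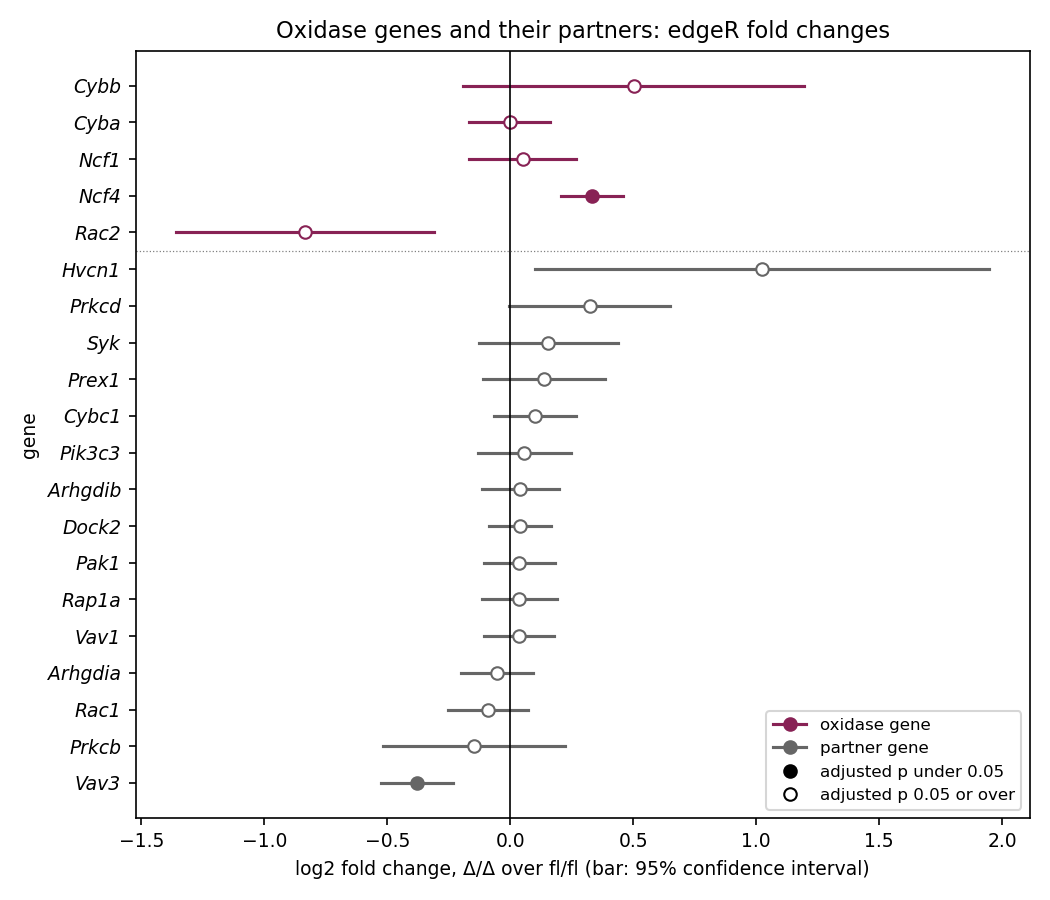
The plot gives the log2 fold change of Δ/Δ over fl/fl with its 95% confidence interval for the 5 oxidase genes (upper block) and 15 partner genes (lower block), filled where the adjusted p is under 0.05. *Ncf4* and *Vav3* are filled, and the intervals of *Rac2* and *Hvcn1* leave out 0 without passing the adjusted threshold.

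The other NADPH oxidases were all but absent. Of 9 genes for other NOX and DUOX enzymes and their organizers, 7 had no read in any library, which limits each to 3 reads per library, 0.138 CPM at the lowest depth (counting error only). *Nox1* read at most 0.187 CPM. The organizer gene *Noxo1* alone entered the test, at 2.91 and 3.65 CPM on average (adjusted p = 0.585).

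Genes that make NADPH, the electron donor, were described with a list of 10 genes of the pentose phosphate pathway and cytosolic dehydrogenases. Of the 9 tested, none passed, beside 3.88% of all genes, and the median log2 fold change was -0.06. *Taldo1*, transaldolase, was the most abundant gene of the list. It read 516, 483 and 455 CPM in fl/fl and 410, 381 and 372 CPM in Δ/Δ libraries, without overlap (log2 fold change -0.32, adjusted p = 0.0505). Its adjusted p lay just above the threshold, and the list held 1 gene that passed downward in 7 of the 12 alternatives, DESeq2's size factors among them.

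Of 19 genes that remove superoxide and peroxide, 17 were tested, 2 passed downward and none upward, beside 1.85 and 2.03% of all genes, with a median log2 fold change of -0.07. *Sod1*, the cytosolic superoxide dismutase, fell by 0.45 on the log2 scale (95% interval -0.67 to -0.24, adjusted p = 0.0460). It read 427, 415 and 395 CPM in fl/fl and 339, 265 and 298 CPM in Δ/Δ libraries. *Prdx2*, a peroxiredoxin that reduces hydrogen peroxide, fell by 0.44 (adjusted p = 0.0479), from 131 ± 5.50 to 96.5 ± 11.4 CPM. Both genes were lower in every Δ/Δ library. *Sod1* lost its call without fl/fl 1, fl/fl 2, fl/fl 3 or Δ/Δ 3, with adjusted p values of 0.194, 0.178, 0.118 and 0.111. *Prdx2* lost its call without those libraries (0.190, 0.192, 0.116 and 0.108) and without Δ/Δ 2 (0.0783). *Gpx1*, a glutathione peroxidase and the most abundant that did not pass, read 389 ± 36.9 and 371 ± 24.6 CPM.

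Of 8 factors known to bind the *Cybb* promoter, 1 passed upward and none downward, beside 2.03 and 1.85% of all genes, with a median log2 fold change of 0.11. *Cebpa*, a myeloid transcription factor, was higher by 0.84 on the log2 scale (95% interval 0.58 to 1.11, adjusted p = 0.0122), at 35.2, 35.0 and 41.8 CPM in fl/fl and 61.7, 63.0 and 76.4 CPM in Δ/Δ libraries. Its call was lost without fl/fl 1 (adjusted p = 0.0849) or fl/fl 2 (0.0836). *Irf8*, the lineage factor of cDC1s and the most abundant gene of the list, averaged 2712 ± 60.3 and 2795 ± 76.6 CPM (log2 fold change 0.04, adjusted p = 0.687).

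Markers of other cells that carry the oxidase were read beside these values. The summed level of 14 neutrophil markers was 5.21 to 23.5 CPM in fl/fl and 3.53 to 12.2 CPM in Δ/Δ libraries, with *Elane* and *Ly6g* at 0 in all libraries. Of the 5 tested, none passed, beside 3.88% of all genes. *S100a9*, the most abundant, averaged 5.07 and 2.37 CPM (adjusted p = 0.425). *Csf3r* (log2 fold change 2.16, adjusted p = 0.0782) was higher and *Ngp* (-4.31, 0.0987) lower in every Δ/Δ library, both at low counts. With DESeq2's Wald test, without a filter on low counts or with the replicate block, 1 gene passed upward and 1 downward. Without Δ/Δ 2, 1 passed upward. Of the 11 monocyte and macrophage markers, 9 were tested. *Ccr2* (log2 fold change 0.96, adjusted p = 0.0130) and *Adgre1* (0.91, adjusted p = 0.0317) passed upward and none downward, beside 2.03 and 1.85% of all genes. By sign, 6 were higher and 3 lower. Without Δ/Δ 2, 3 of these markers passed upward and 1 downward. The call of *Ccr2* was lost without fl/fl 2 (0.0813), and that of *Adgre1* without fl/fl 1 (0.143), fl/fl 2 (0.148), fl/fl 3 (0.0756) or Δ/Δ 3 (0.0774). The cDC2 marker sum was 225 to 371 CPM in fl/fl and 520 to 754 CPM in Δ/Δ libraries, highest in Δ/Δ 3. Of its 10 genes, 3 passed upward (*Cd209a*, *Klf4* and *Cd4*), beside 2.03% of all genes. With 1 library left out, 1 to 4 did. In sign, 8 of these genes were higher and 2 lower. Among the lower was *Sirpa*, the gene behind the CD172a gate (log2 fold change -0.21, adjusted p = 0.430), which overlapped between genotypes. The factor gene *Irf4* was higher in every Δ/Δ library (1.26, adjusted p = 0.0699). Counts of *Cd4* were low, at 16 to 41 reads per fl/fl library and 98 to 145 per Δ/Δ library. The call of *Klf4* was lost when any fl/fl library was left out (adjusted p = 0.158, 0.166 and 0.0558 for fl/fl 1, 2 and 3) and when Δ/Δ 3 was (0.0502). That of *Cd4* was lost when fl/fl 1 (0.145), fl/fl 2 (0.173) or Δ/Δ 3 (0.0712) was left out. The pDC sum was 246 to 265 CPM in fl/fl and 266 to 318 CPM in Δ/Δ libraries. Of 7 pDC genes tested, 1 passed upward (*Ccr9*) and none downward, beside 2.03 and 1.85% of all genes. *Bst2*, the most abundant pDC marker, was lower in every Δ/Δ library, at 100 ± 10.2 and 75.7 ± 4.51 CPM (adjusted p = 0.0572). With DESeq2's Wald test, without a filter on low counts or without Δ/Δ 1, 2 pDC genes passed upward and 1 downward. The B cell sum was 18.8 to 30.9 CPM in fl/fl and 12.8 to 49.9 CPM in Δ/Δ libraries, and no B cell gene passed. All 10 cDC1 markers were detected in every library, at sums of 8969 to 9033 CPM in fl/fl and 7249 to 8523 CPM in Δ/Δ. These sums were mostly *Wdfy4* and *Irf8*. *Wdfy4* was lower in every Δ/Δ library, at 3692 ± 84.6 and 3051 ± 255 CPM (adjusted p = 0.0876), and *Irf8* was not. Of the 10 cDC1 markers 3 passed downward (*Xcr1*, *Tlr3* and *Snx22*) and none upward, beside 1.85 and 2.03% of all genes. With 1 library left out, 0 to 4 passed downward. By sign, 6 of the 10 were lower and 4 higher. *Cadm1* was higher in every Δ/Δ library (log2 fold change 0.32, adjusted p = 0.0615). *Itgae* (1.10, adjusted p = 0.343) was highest in Δ/Δ 2, at 892 CPM. With DESeq2's Wald test, 1 marker passed upward and 5 downward, and without a filter on low counts or without Δ/Δ 1, 1 and 4 did. *Xcr1* lost its call without fl/fl 1 (adjusted p = 0.0569) or fl/fl 2 (0.0501), and *Tlr3* without fl/fl 1 (0.108), fl/fl 2 (0.107) or fl/fl 3 (0.0885). *Snx22* lost it without those 3 libraries (0.147, 0.149 and 0.130) or Δ/Δ 2 (0.0602). *Ncf4* and *Rac2* thus read apart between libraries in which the monocyte, cDC2 and cDC1 sums also did not overlap. The pDC sums all but met, at 265.3 CPM at most in fl/fl and 265.8 CPM at least in Δ/Δ libraries. Of single genes tested, 26.0% did not overlap between genotypes. The part of the cells behind these sums in the values of both genes was not tested.

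*Ncf4* and *Rac2* lie on the same chromosome, 296.587 kb apart. The annotation places 19 genes from the one to the other, of which 9 had no read and 8 were tested. *Ncf4* alone passed, beside 3.88% of all genes. The nearest tested neighbours of *Ncf4* were *Csf2rb2* and *Csf2rb*, which encode chains of the receptors for IL-3 and GM-CSF. They averaged 238 and 510 CPM in fl/fl and 270 ± 115 and 573 ± 232 CPM in Δ/Δ libraries, with both high in Δ/Δ 2 (402 and 840 CPM). These genes are near-identical copies, so that reads could be split between them or lost. *Mpst*, a sulfurtransferase gene further along, was lower in every Δ/Δ library (log2 fold change -0.35, adjusted p = 0.0918), and so was *C1qtnf6* beside *Rac2* (-1.62, adjusted p = 0.128), although at only 5 to 33 reads per library. *Kctd17* (adjusted p = 0.419) and *Il2rb* (0.786) overlapped between genotypes.

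**Figure D4:**
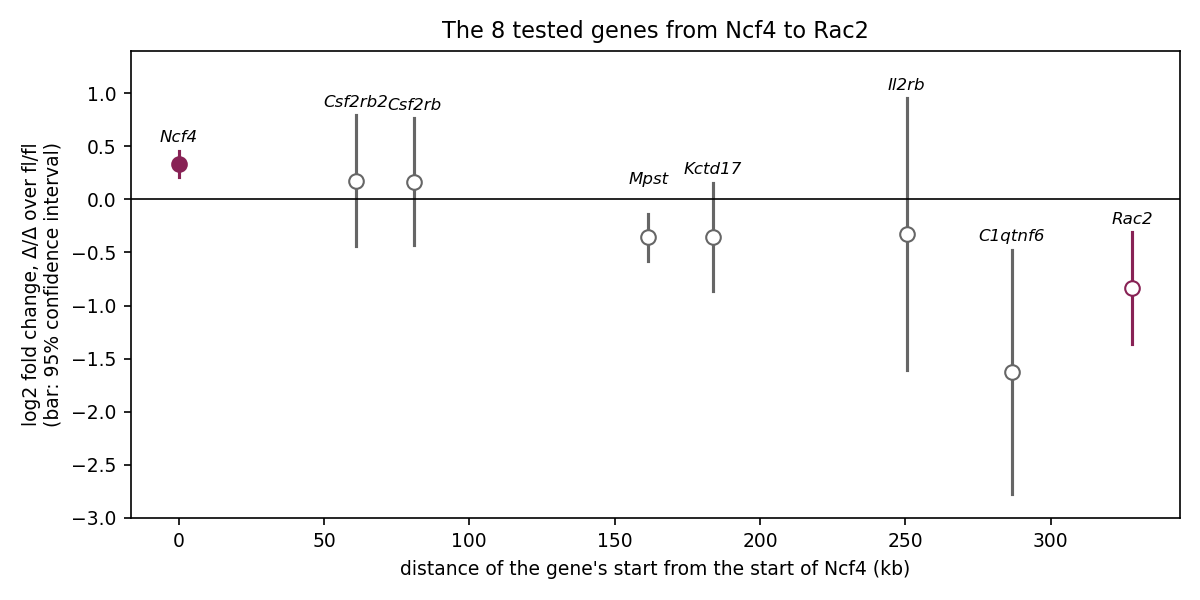
The plot gives the log2 fold change of Δ/Δ over fl/fl with its 95% confidence interval for the 8 tested genes from *Ncf4* to *Rac2*, by the distance of each gene's start from that of *Ncf4* in kb (filled where the adjusted p is under 0.05). *Ncf4* is above 0 and *Rac2* at -0.83, and *Ncf4* is the only filled point.

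The oxidase genes did not follow each other closely across the 6 libraries. Pearson's r of log2 CPM (prior count 2) is given as a description, since the libraries fall into 2 genotypes. It was highest for *Cyba* and *Ncf1*, at 0.86, and 0.89 after the genotype means were removed. For *Cybb* and *Rac2* it was 0.02, and 0.85 after the means were removed, where both are highest in Δ/Δ 3. For *Ncf4* and *Rac2* it was -0.76, and 0.62 after removal. The other 7 pairs had r from -0.21 to 0.54.

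Among 8391 protein-coding genes of at least 10 CPM, the pattern most like *Cybb* was that of *Sfi1* (r = 0.993), followed by *Evl* and *Zfp790*. The nearest to *Cyba* were *Mtf1* (0.982), *Cyth1* and *Rest*, and the nearest to *Ncf1* were *Bcl3* (0.997), *Mad2l1bp* and *Zbtb4*. *Ncf4* was followed most closely by *Tbc1d16* (0.998), *Tnfsf9* (0.995) and *Cry1*, of which *Tbc1d16* (log2 fold change 1.396, adjusted p = 0.00417) and *Tnfsf9* (0.97, adjusted p = 0.00472) also passed the test upward. *Rac2* was followed by *Tnni2* (0.997), *Tgs1* and *Mtmr10*, none of which passed. With 6 libraries such values are common, and 11 genes (*Cyba*) to 157 genes (*Ncf4*) had an r over 0.95 with a given oxidase gene.

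**Figure D5:**
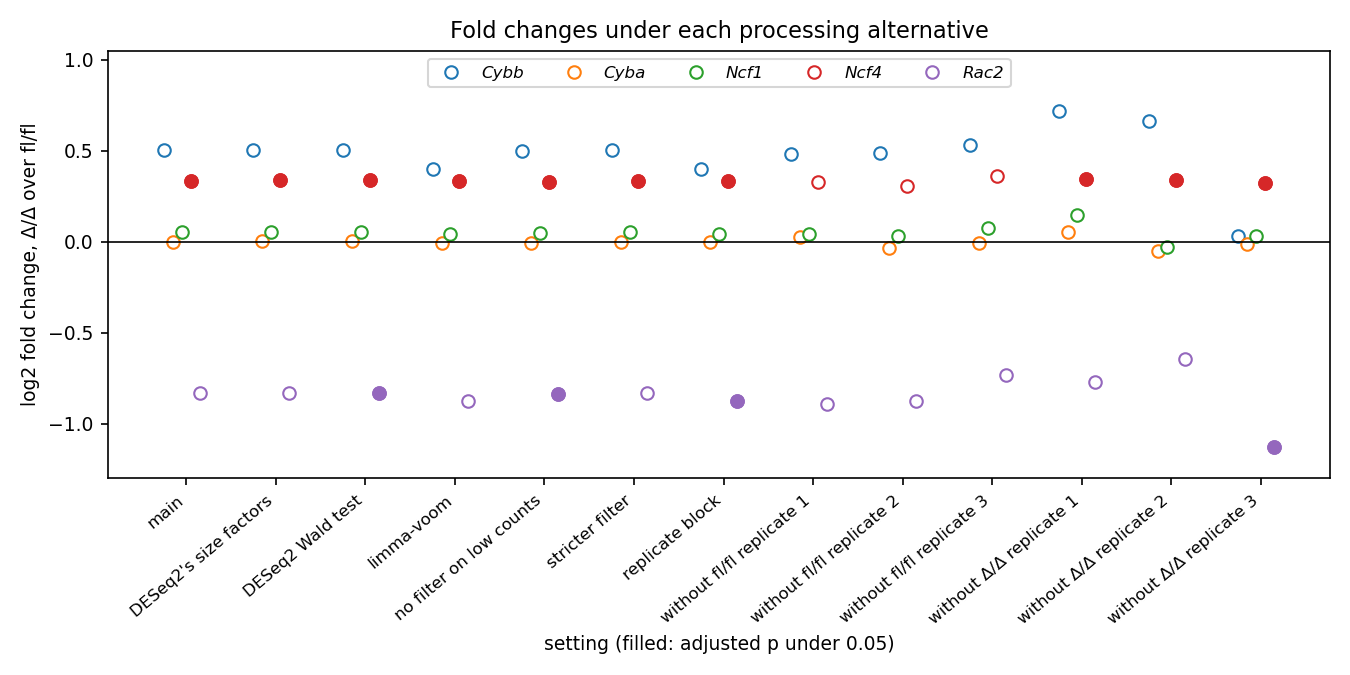
The plot gives the log2 fold change of Δ/Δ over fl/fl for the 5 oxidase genes under the main setting and 12 alternatives on the horizontal axis, filled where the adjusted p is under 0.05. *Ncf4* stays between 0.31 and 0.36, *Rac2* between -1.13 and -0.64, and *Cybb* drops to 0.03 without Δ/Δ 3.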

How the data were processed

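Poly(A) RNA of sorted cDC1s was sequenced as directional libraries on a NextSeq500. The authors aligned reads with STAR 2.6.1a (2-pass) to mm10 and GENCODE vM19 and deposited raw counts of reads per gene, without pooling or normalization. The submitters' processing notes also name bcl2fastq 2.19.1.403, RSEM and DESeq2 1.20.0. Which strand column was used is not stated. STAR's tallies of reads outside genes (79.1 to 79.7% lay on genes) were left out. Of the identifiers, 54495 matched GENCODE M21 (GRCm38), used for names, lengths and positions, and 37 did not.

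From these counts, genotypes were compared in R 4.3.3 with the quasi-likelihood functions of edgeR 4.0.16 (genotype as the only term, TMM factors, filterByExpr at a minimum count of 10 and total of 15). Standard errors were taken from the F statistic. Steps were tested on simulated counts. A supplementary legend counts these samples as individual mice, and the labels say only that they are replicates. The genes, lists, motifs and naming rule were chosen with earlier results of these data known. Named were all oxidase genes, *Rac1*, *Cybc1* and *Hvcn1*, list genes that passed and the most abundant that did not (but no B cell gene), the 3 genes most like each oxidase gene, tested genes from *Ncf4* to *Rac2*, and *Jun*, *Junb* and *Itgax*. *Gtf2ird2*, *Gm20388*, *Nox1*, *Xist*, *Cd14*, *Cx3cr1*, *Ly6c2*, *Fcgr1*, *C1qb*, *Csf1r*, *C1qa*, *Mertk*, *Elane*, *Ly6g*, *S100a9*, *Csf3r*, *Ngp*, *Irf4*, *Sirpa*, *Bst2*, *Wdfy4*, *Cadm1* and *Itgae* were added after their values were seen. Some genes of these lists and of the complex are not reported here, and the lists were counted without them. The alternatives tried were size factors of DESeq2 1.42.0, its Wald test, limma-voom (limma 3.58.1), no filter, a stricter filter (a mean of 1 CPM), a replicate block, each library left out, longest transcripts, a prior count of 0.5 and a promoter window from 100 bases before the start. Figures used matplotlib 3.10.9 in Python 3.11.15.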

Additional observations from a re-analysis of the deposited data

How the results depend on the processing

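No result changed its direction together with a call under any of the alternatives tried. The 240 genes called became 385 with DESeq2's Wald test and 74 to 579 with 1 library left out (leaving out fl/fl 1, 2 and 3 gave 74, 80 and 154, and leaving out Δ/Δ 1 and 2 gave 579 and 370). The number of oxidase genes past the test, 1, was 2 with DESeq2's Wald test and without a filter on low counts (*Ncf4* and *Rac2*), and 0 to 2 with 1 library left out, being 0 without each of the fl/fl libraries and 2 without Δ/Δ 3. It was 1 in the other alternatives apart from the replicate block. The cause of these changes was not tested, other than that a fit with 5 libraries has fewer samples. *Cyba* (-0.05 to 0.05), *Ncf1* (-0.03 to 0.15) and *Cybb* (0.03 to 0.72) did not pass in any of the 12 alternatives, and the first 2 took both signs. Over the same alternatives 0 to 1 partner genes passed upward and 0 to 1 downward, and 0 to 4 genes that remove superoxide and peroxide passed downward. The shorter promoter window held no AP-1 match and 1 IRF match for *Cybb*. With DESeq2's size factors the median log2 fold change of all genes tested was 0.0051, beside 0.0018 in the main setting.

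The labels number the replicates of both genotypes 1 to 3. Deviations from the genotype means of same-numbered libraries correlated at 0.09, -0.15 and 0.20, and those of different numbers at -0.22 to 0.15. With 3 libraries per genotype, these values cannot show whether same-numbered samples shared a culture or a sort. The labels give only the number, so the main test did not pair the libraries. With the replicate block, 207 genes were called and 2 oxidase genes passed, *Ncf4* (adjusted p = 0.0436) and *Rac2* (0.0352). The partner *Vav3* did not (0.0508).

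Depth did not limit the 5 oxidase genes, which had 1166 to 8372 reads per library. The spread between the Δ/Δ libraries, 33.4% for *Rac2* and 48.3% for *Cybb*, and the 3 libraries per genotype limit what these data can show.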
